A study of Mus musculus with 8 samples.

Results

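The genes described here are 35 members of the NRF2 pathway and of the cell's antioxidant enzymes, chosen by symbol from general knowledge of the pathway, with glutathione transferases left out. The choice was made with earlier results of these data known. All 35 had a row among the 24411 genes of the deposited table, and 34 of them were among the 12122 genes with enough counts to be tested. RNA was sequenced from plated hepatocytes, the parenchymal cells of the liver, taken 2 days into culture. They came from mice whose Taf2 gene was conditionally knocked out in hepatocytes (KO, 4 libraries) and from wild-type mice (WT, 4 libraries). The TAF2 protein belongs to TFIID, the general transcription factor that recognises core promoters. The sources used here give neither the Cre driver of the knockout nor strain, age or sex, and they do not say whether each library came from its own animal, so the spread between libraries may be partly technical.

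NRF2, encoded by Nfe2l2, is a transcription factor that is held at a low level by KEAP1, an adaptor that hands it to a ubiquitin ligase. Oxidants and electrophiles modify KEAP1, NRF2 then accumulates, pairs with a small MAF protein and binds antioxidant response elements in the promoters and enhancers of its target genes. In the liver these targets make and recycle glutathione, reduce thioredoxin, supply NADPH and detoxify drugs and haem, and BACH1 competes with NRF2 for many of the same elements.

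Library totals lay between 20287023 and 23933589 estimated counts in KO and between 18947059 and 22824568 in WT libraries. Levels are counts scaled to library size (CPM), means carry the SD of 4 libraries, and differences are log2 fold changes of KO over WT with their standard error (SE). Taf2 itself had 13.9, 15.7, 13.4 and 12.7 CPM in the KO libraries, against 42.5, 46.4, 45.1 and 42.2 CPM in the WT libraries, with no KO library near the WT range, as the labels have it. Hepatocyte markers (7 of 12 higher in KO, 2 lower) summed to 60385 to 66732 CPM in KO libraries and 43859 to 47796 CPM in WT libraries. Most of that sum was Alb, for serum albumin, at 55183 ± 3032 CPM in KO libraries and 38035 ± 1777 CPM in WT libraries (SD, n = 4 each). The sum therefore mainly follows Alb. The 2 hepatocyte markers called lower were Cps1 (log2 fold change -0.65 with SE 0.047) and Apoa1 (-0.29 with SE 0.032). Markers of other liver cells moved with genotype too. Macrophage markers (11 of 11 tested were higher in KO, median log2 fold change 2.53) summed to 237 to 267 CPM in KO libraries and 87.8 to 117 CPM in WT libraries, and most of that sum was Cd68, at 172 ± 12.5 CPM in KO libraries and 84.1 ± 11.97 CPM in WT libraries. Endothelial markers (9 of 9 higher, median 1.71) summed to 131 to 139 CPM in KO libraries and 46.4 to 53.4 CPM in WT libraries. Stellate cell markers (8 of 10 higher, 1 lower, median 2.10) summed to 142 to 155 CPM in KO libraries and 71.4 to 76.5 CPM in WT libraries, of which Reln made up 102 ± 5.16 CPM in KO libraries and 61.7 ± 2.46 CPM in WT libraries. The mean of 7 of these 10 markers was under 1 CPM in WT libraries, so their folds rest on few counts. The stellate marker called lower was Acta2, at 2.37 ± 0.451 CPM in KO libraries and 5.99 ± 0.987 CPM in WT libraries (log2 fold change -1.33 with SE 0.15). Of 4 cholangiocyte markers Sox9 (1.25) and Spp1 (0.21) were higher and Krt7 (-1.71) and Krt19 (-0.50) lower, as log2 fold changes. Of the neutrophil markers 1 was tested, Mmp8, which had 31, 40, 37 and 29 counts in the KO libraries and 2, 7, 1 and 5 counts in the WT libraries (log2 fold change 3.09 with SE 0.35, edgeR adjusted p = 1.84e-07), and Camp had 0 counts in all 8 libraries. No lymphocyte marker had enough counts to be tested, and Cd3d, Ms4a1 and Nkg7 had 0 counts in all 8 libraries. The erythroid gene Alas2, the tested marker of its list, was lower in KO (log2 fold change -0.43 with SE 0.056, edgeR adjusted p = 1.74e-06). The haemoglobin genes of that list had too few counts to be tested. Hba-a1 had 6, 3, 2 and 1 counts in the KO libraries and 9, 13, 9 and 20 counts in the WT libraries. Hbb-bs had 1, 0, 0 and 0 counts in the KO libraries and 0, 0, 4 and 0 counts in the WT libraries. Hba-a2 and Hbb-bt had 0 counts after rounding in all 8 libraries. In a bulk sample, fewer cells of a type and less RNA per cell cannot be told apart.

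More members were higher than lower in KO hepatocytes. Those that rose include Hmox1, Gpx3, G6pdx, Ugdh, Srxn1, Gclc, Gclm and Txnrd1, those that fell are Gss, Gpx1, Txn2 and Prdx5, and Nfe2l2 itself was not called. Of the 34 members tested 20 rose, 4 fell and 10 did not pass the test (edgeR quasi-likelihood test, adjusted p under 0.05). Among all genes tested 61.4% were called, 30.2% higher and 31.2% lower, and the members' shares were 58.8% higher and 11.8% lower. The members' median log2 fold change was 0.20, against -0.0035 over all genes tested. Most of the called changes were small, with 16 of 24 under 0.5 on the log2 scale. The 4 members past 1 on that scale, Hmox1, Gpx3, G6pdx and Ugdh, all rose, where 6.9% of all genes tested rose and 2.6% fell by that much. Levels of KO and WT libraries did not overlap for 20 members above and 4 members below the WT range, where 54.7% of all genes tested did not overlap, 26.9% above and 27.8% below. Nqo1 was called with overlapping groups, and Pgd was not called although its groups did not overlap.

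**Figure D1:**
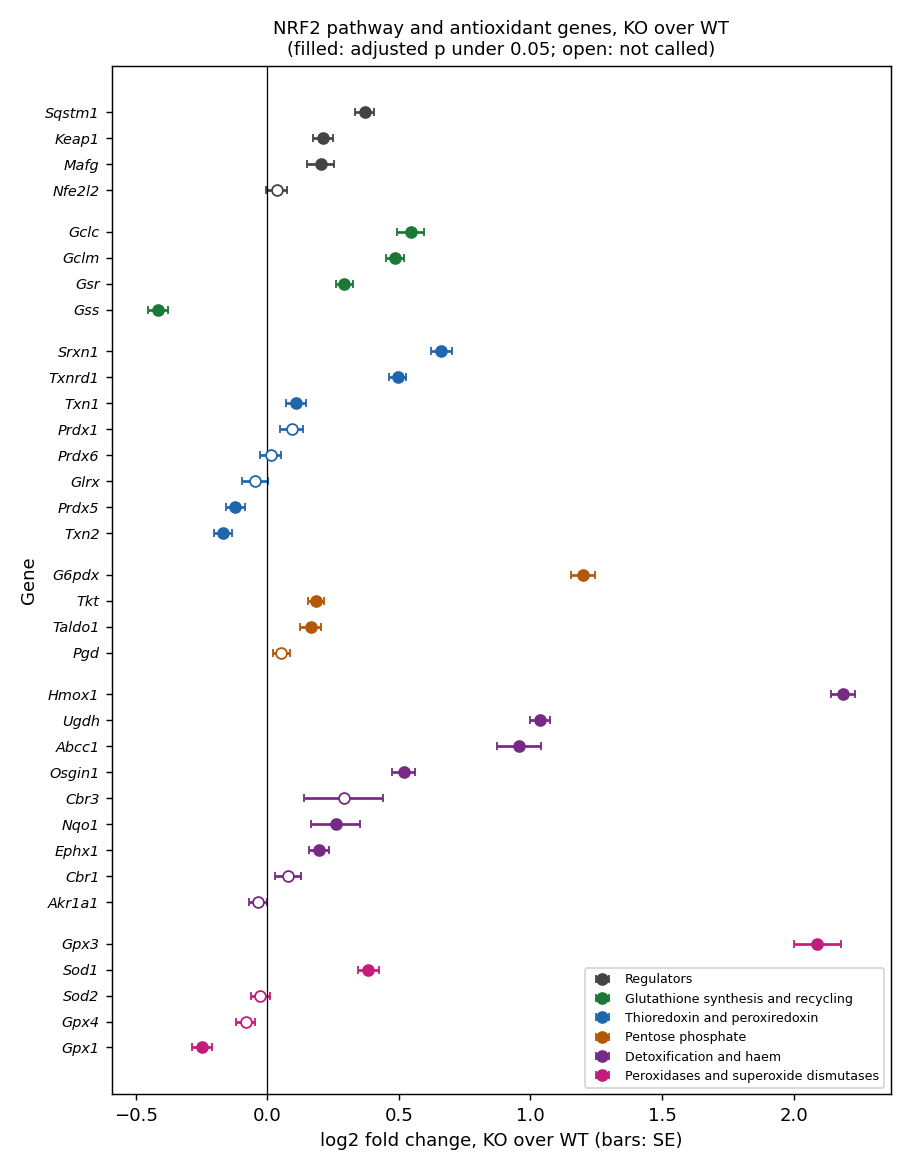
Log2 fold change of KO over WT (horizontal axis, bars are 1 SE) for the 34 members tested, grouped by role. Hmox1 at 2.19 and Gpx3 at 2.09 lie farthest to the right, Gss at -0.42 farthest to the left, and open circles mark the 10 members that did not pass.

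The members together took between 1.37% and 1.40% of the counts in KO libraries, against 1.12% to 1.19% in WT libraries. Their summed level was 13977 ± 102 CPM in KO and 11416 ± 247 CPM in WT libraries (SD, n = 4 each). A few members carried most of that difference. Hmox1 made up 23.5% of it, Gclc 19.3%, Sqstm1 14.6%, Ugdh 11.6% and Srxn1 8.62%. Without these 5 genes the sums were 8804 ± 140.3 CPM in KO and 8232 ± 192 CPM in WT libraries. Per kilobase of transcript, which allows levels to be compared between genes, Gpx1 was the most abundant member in both genotypes, at 1066 in KO and 1265 in WT libraries (mean CPM per kilobase). Next in KO libraries came Sqstm1 at 616 in KO and 476 in WT libraries, Sod1 at 515 in KO and 394 in WT libraries and Prdx1 at 514 in KO and 482 in WT libraries. Hmox1 stood in the 5th place in KO and the 20th in WT libraries, at 492 in KO and 108 in WT libraries on that scale. Gpx3 and G6pdx, 2 other members with large changes, were far less abundant, with 12.4 in KO and 2.90 in WT libraries for Gpx3 and 23.7 in KO and 10.3 in WT libraries for G6pdx.

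Promoter sequences, as 250 bases before the transcription start from RefSeq (build GRCm38.p6), were found for 30 of the 35 members, and the matching stretches are shown because the antioxidant response element is the site through which NRF2 reaches its targets. Gclc, Gsr, Hmox1, Prdx6 and Abcc1 had no entry. The core of the antioxidant response element, TGACNNNGC, was searched on both strands. It was present in 8 of these 30 genes (26.7%), against 14.3% of the 9283 tested genes with a promoter. By call, 6 of 16 members that rose, 0 of 4 that fell and 2 of 9 that were not called held a match. These are descriptions of letters in a short window, and elements farther away were not searched. Each match is shown in capitals with up to 30 bases on either side, read 5′ to 3′ on the gene's strand, with positions counted from the transcription start. A match on the opposite strand reads as GCNNNGTCA.
G6pdx (chrX:74428899-74428967, minus strand, bases -87 to -19): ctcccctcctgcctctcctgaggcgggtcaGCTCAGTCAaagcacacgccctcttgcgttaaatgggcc
Gclm (chr3:122245393-122245461, plus strand, bases -164 to -96): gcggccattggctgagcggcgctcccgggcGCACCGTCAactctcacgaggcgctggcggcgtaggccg
Mafg (chr11:120633731-120633797, minus strand, bases -250 to -184): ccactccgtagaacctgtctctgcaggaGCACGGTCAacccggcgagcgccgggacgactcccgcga
Sod1 (chr16:90220676-90220744, plus strand, bases -86 to -18): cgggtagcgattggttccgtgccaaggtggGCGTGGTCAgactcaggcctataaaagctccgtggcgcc
Txnrd1 (chr10:82859084-82859152, plus strand, bases -122 to -54): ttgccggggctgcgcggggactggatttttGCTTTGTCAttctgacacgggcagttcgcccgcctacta
Ugdh (chr5:65435898-65436004, minus strand, bases -162 to -56): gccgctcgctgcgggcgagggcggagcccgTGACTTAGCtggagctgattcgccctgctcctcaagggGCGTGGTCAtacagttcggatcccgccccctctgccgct
Nfe2l2 (chr2:75704865-75704913, minus strand, bases -250 to -202): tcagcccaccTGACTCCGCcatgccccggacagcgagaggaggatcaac
Prdx1 (chr4:116685436-116685504, plus strand, bases -163 to -95): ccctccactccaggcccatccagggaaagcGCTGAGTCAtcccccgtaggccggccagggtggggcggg
The first 6 genes rose in KO hepatocytes and the last 2 were not called. Ugdh held 2 matches. The Prdx1 match, TGACTCAGC on the opposite strand, also contains the AP-1 motif TGACTCA, and none of the others overlapped that motif. Txnrd1 had 3 promoters in the table and a match in 1 of them.

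Among the regulators, the gene for NRF2 itself did not pass, while Keap1, Mafg and Sqstm1 were modestly higher. Thus 3 of 4 rose (75%) and 0 fell, where 30.2% of all genes tested rose and 31.2% fell. Nfe2l2 (chromosome 2, 75675513 to 75704641, build mm10) had 164, 167, 153 and 164 CPM in the KO libraries, against 157, 160.3, 165 and 149 CPM in the WT libraries. The groups overlapped, with KO replicate 3 below 3 of the WT libraries (log2 fold change 0.035 with SE 0.040, edgeR adjusted p = 0.458). Keap1, which encodes the adaptor that marks NRF2 for destruction, had 78.1, 76.3, 77.7 and 73.04 CPM in the KO libraries, against 67.3, 67.2, 66.8 and 62.2 CPM in the WT libraries. Every KO library was above every WT library, and Keap1 rose by 0.21 on the log2 scale (SE 0.037, edgeR adjusted p = 5.53e-05). Mafg, for a small MAF partner of NRF2, stood at 37.4 ± 1.47 CPM in KO libraries and 32.5 ± 2.03 CPM in WT libraries (log2 fold change 0.20 with SE 0.052, edgeR adjusted p = 0.00198). Exons of Mafg overlap those of Sirt7 on the same strand, and Sirt7 stood at 28.6 CPM in KO and 29.4 CPM in WT libraries. Sqstm1, for the autophagy receptor p62, which binds KEAP1 and so releases NRF2, and which is itself an NRF2 target, had 1596, 1659.5, 1634 and 1693 CPM in the KO libraries, against 1330.2, 1211, 1279.8 and 1269 CPM in the WT libraries. It was the most abundant of the 4 regulators per kilobase, and its groups did not overlap (log2 fold change 0.37 with SE 0.036, edgeR adjusted p = 2.23e-08).

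Outside the member list, Bach1, Maff and Trim21 rose with larger log2 fold changes than any of the 4 regulators above. Of 11 further regulators tested, 3 rose (27.3%) and 2 fell (18.2%), where 30.2% of all genes tested rose and 31.2% fell. Bach1, the repressor that occupies antioxidant response elements until haem displaces it, stood at 84.02 ± 4.61 CPM in KO libraries and 54.3 ± 3.37 CPM in WT libraries (log2 fold change 0.63 with SE 0.046). Maff, for another small MAF protein, stood at 127 ± 2.18 CPM in KO libraries and 82.98 ± 2.37 CPM in WT libraries (log2 fold change 0.61 with SE 0.035), and Trim21, for an interferon-inducible ubiquitin ligase that binds p62, at 11.7 ± 0.751 CPM in KO libraries and 6.28 ± 0.632 CPM in WT libraries (log2 fold change 0.90 with SE 0.086). Nfe2l1, for the related factor NRF1, fell to 151 ± 7.75 CPM in KO libraries, against 185 ± 8.24 CPM in WT libraries (log2 fold change -0.29 with SE 0.042). Btrc, for a ubiquitin ligase subunit that recognises NRF2, was also called lower (log2 fold change -0.26 with SE 0.078, edgeR adjusted p = 0.00775). The Btrc groups overlapped, with KO replicate 2 at 15.1 CPM above WT replicate 1 at 14.8 CPM and WT replicate 2 at 14.9 CPM. Within single libraries the ratio of Bach1 to Nfe2l2 CPM lay between 0.492 and 0.591 in KO libraries, against 0.326 and 0.367 in WT libraries.

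**Figure D2:**
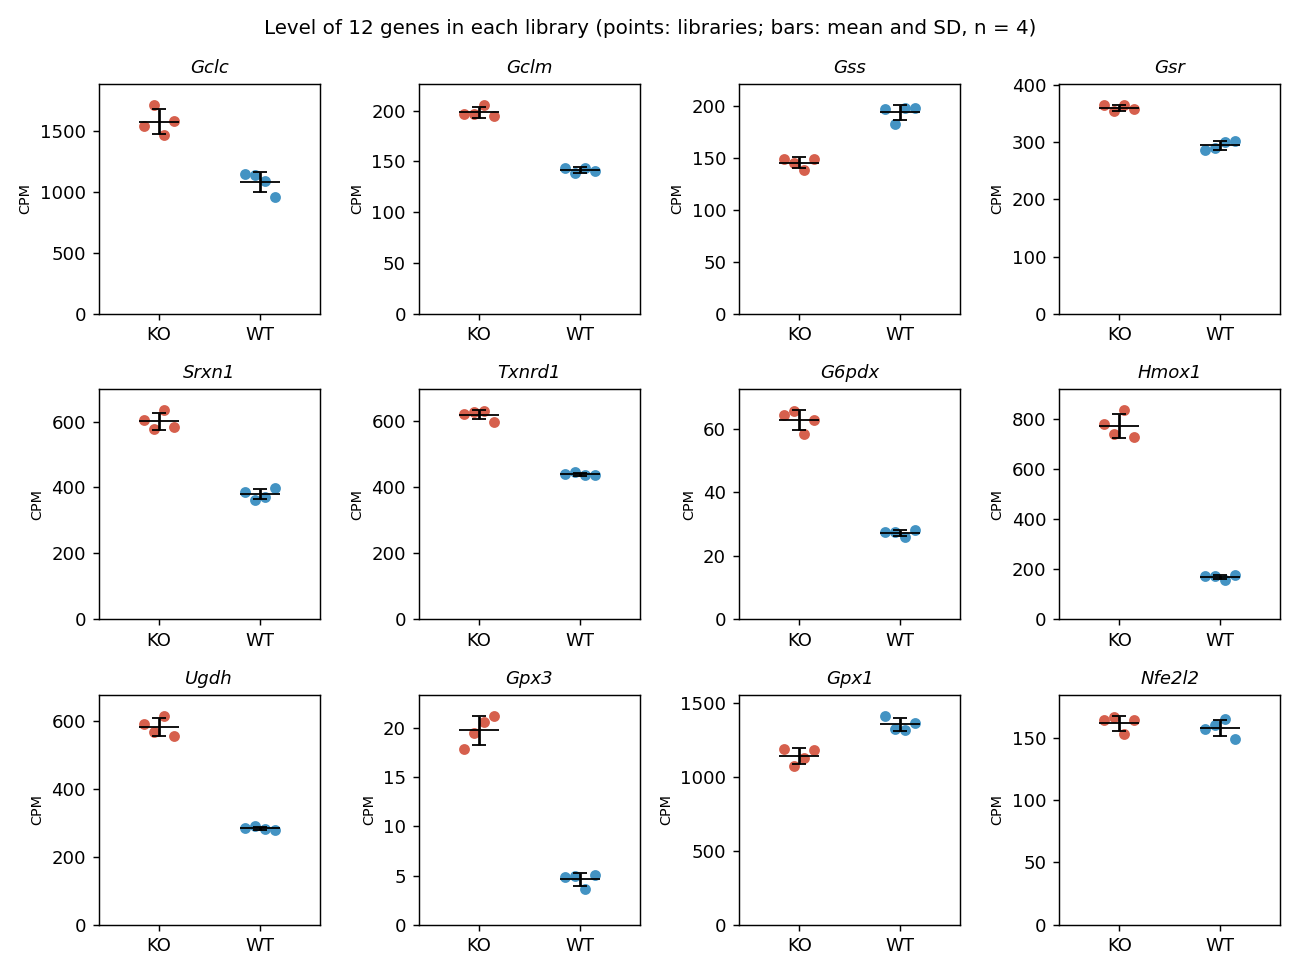
Level in CPM (vertical axis, from 0) of 12 members in each KO and WT library, with mean and SD of 4 libraries. KO and WT points separate for all of these genes except Nfe2l2, with Gss and Gpx1 lower in KO and the others higher.

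Genes for both subunits of the first enzyme of glutathione synthesis rose while the gene for the second enzyme fell. In all, 3 of the 4 glutathione genes rose (75%) and 1 fell (25%), where 30.2% of all genes tested rose and 31.2% fell. Gclc (chromosome 9, 77754535 to 77794485), for the catalytic subunit of glutamate-cysteine ligase, had 1537, 1713, 1465 and 1579 CPM in the KO libraries, against 1141, 1133, 1084 and 957 CPM in the WT libraries. The lowest KO library lay above the highest WT library (log2 fold change 0.55 with SE 0.052, edgeR adjusted p = 1.76e-08). Gclm (chromosome 3, 122245557 to 122270732), for the modifier subunit, whose promoter match is shown above, had 196, 197, 206 and 194 CPM in the KO libraries, against 144, 138, 144 and 140.2 CPM in the WT libraries, again with no overlap (log2 fold change 0.49 with SE 0.035, edgeR adjusted p = 2.43e-10). The subunits kept a similar balance, since the ratio of Gclc to Gclm CPM lay between 7.11 and 8.71 in KO libraries, against 6.82 and 8.18 in WT libraries, with overlapping groups. Gss (chromosome 2, 155563181 to 155592810), for glutathione synthetase, which adds glycine in the second step, had 149, 145, 138 and 149 CPM in the KO libraries, against 197, 182, 197 and 197 CPM in the WT libraries. It fell in all 4 KO libraries relative to all 4 WT libraries (log2 fold change -0.42 with SE 0.039, edgeR adjusted p = 1.36e-08). The ratio of Gclc to Gss CPM lay between 10.3 and 11.8 in KO libraries, against 4.85 and 6.21 in WT libraries, a measure that scaling between libraries does not touch. Exons of Gss overlap those of Acss2 on the opposite strand, where Acss2 stood at 33.2 CPM in KO and 51.5 CPM in WT libraries. Reads within that overlap cannot be assigned by strand without a known strand setting, though all Gss counts were whole. Gsr, for the NADPH-dependent reductase that regenerates glutathione, had 365, 355, 366 and 358 CPM in the KO libraries, against 286, 289.6, 300.2 and 301 CPM in the WT libraries. Its libraries varied little within a genotype and the groups were apart (log2 fold change 0.29 with SE 0.033, edgeR adjusted p = 2.34e-07).

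In the thioredoxin system the reductase and the peroxiredoxin repair enzyme rose, with smaller changes of either sign for thioredoxins and peroxiredoxins. Of the 8 genes 3 rose (37.5%) and 2 fell (25%), where 30.2% of all genes tested rose and 31.2% fell. Srxn1 (chromosome 2, 152105516 to 152111376), for sulfiredoxin, which repairs overoxidised peroxiredoxins, had 606, 579, 635 and 583 CPM in the KO libraries, against 387, 362, 372 and 399 CPM in the WT libraries. It had the largest change of this group, with no overlap between genotypes (log2 fold change 0.66 with SE 0.039, edgeR adjusted p = 1.32e-11). Txnrd1 (chromosome 10, 82833951 to 82897712), for the cytosolic thioredoxin reductase, had 620.3, 627, 630.00 and 599 CPM in the KO libraries, against 440.4, 445, 436 and 435 CPM in the WT libraries. Its WT libraries spanned a range of under 10 CPM, far below the KO libraries (log2 fold change 0.50 with SE 0.033, edgeR adjusted p = 6.38e-11). Txn1, for the cytosolic thioredoxin that this enzyme reduces, stood at 491 ± 16.4 CPM in KO libraries and 456 ± 20.9 CPM in WT libraries (log2 fold change 0.11 with SE 0.038, edgeR adjusted p = 0.0192), with adjusted p from 0.00629 to 0.0844 over 17 alternative analyses. Its call was lost without KO replicate 4 (adjusted p = 0.0560), without WT replicate 2 (0.0583), without WT replicate 3 (0.0844) and with library totals alone (0.0785). Txn2, for the mitochondrial thioredoxin, fell to 260.5 ± 4.46 CPM in KO libraries, against 293 ± 6.99 CPM in WT libraries (log2 fold change -0.17 with SE 0.034, edgeR adjusted p = 0.000234). The ratio of Txn1 to Txn2 CPM lay between 1.83 and 1.96 in KO libraries, against 1.45 and 1.62 in WT libraries.

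Of the peroxiredoxins, which reduce hydrogen peroxide, only Prdx5 among the 3 members was called, and it fell by 0.12 on the log2 scale (SE 0.037, edgeR adjusted p = 0.00740). Its level was 274 ± 4.28 CPM in KO libraries and 298 ± 13.1 CPM in WT libraries. Exons of Prdx5 overlap those of Trmt112 on the opposite strand, which stood at 55.9 CPM in KO and 46.7 CPM in WT libraries, with the same limit as for Gss. Prdx1, the most abundant of the 3 per kilobase, stood at 1178 ± 73.2 CPM in KO libraries and 1105 ± 53.9 CPM in WT libraries (log2 fold change 0.093 with SE 0.044, edgeR adjusted p = 0.0759). Among the 17 alternatives 5 called it, including those without KO replicate 3 (adjusted p = 0.0109) and without WT replicate 1 (0.0431), and the range was 0.0109 to 0.238. Prdx6 stood at 464 ± 20.6 CPM in KO libraries and 459 ± 19.3 CPM in WT libraries (log2 fold change 0.014 with SE 0.040, edgeR adjusted p = 0.780), with a sign that turned in 2 alternatives. Glrx, for glutaredoxin, which reduces protein thiols with glutathione, stood at 30.5 ± 0.985 CPM in KO libraries and 31.4 ± 1.34 CPM in WT libraries (log2 fold change -0.045 with SE 0.049, edgeR adjusted p = 0.447).

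Within the pentose phosphate pathway, which makes NADPH for both reductases, the gene for the first enzyme had the largest change of the 4. Here 3 rose (75%) and 0 fell, where 30.2% of all genes tested rose and 31.2% fell. G6pdx (chromosome X, 74409483 to 74429194), for glucose-6-phosphate dehydrogenase, had 64.3, 65.5, 58.3 and 62.9 CPM in the KO libraries, against 27.4, 27.5, 25.99 and 28.3 CPM in the WT libraries. The lowest KO library was above the highest WT library by more than the spread within either genotype (fold 2.30, log2 fold change 1.20 with SE 0.047, edgeR adjusted p = 1.88e-14). Exons of G6pdx overlap those of Ikbkg on the opposite strand, and Ikbkg stood above G6pdx, at 193 CPM in KO and 172 CPM in WT libraries. As for Gss, reads within the overlap cannot be assigned by strand without a known strand setting, though all G6pdx counts were whole. Pgd, for the second NADPH-forming enzyme, stood at 507 ± 6.23 CPM in KO libraries and 489 ± 9.95 CPM in WT libraries and did not pass (log2 fold change 0.053 with SE 0.032, edgeR adjusted p = 0.163). The ratio of G6pdx to Pgd CPM lay between 0.117 and 0.127 in KO libraries, against 0.0527 and 0.0580 in WT libraries. In the non-oxidative branch Taldo1, for transaldolase, rose by 0.16 on the log2 scale (SE 0.041) and Tkt, for transketolase, by 0.18 (SE 0.032). Tkt stood at 578 ± 5.88 CPM in KO libraries and 509 ± 6.57 CPM in WT libraries, with the smallest relative spread between KO libraries of all members tested.

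Of the detoxification and haem genes 6 of 9 rose (66.7%) and 0 fell, led by Hmox1, where 30.2% of all genes tested rose and 31.2% fell. Hmox1 (chromosome 8, 75093621 to 75100589), for the inducible haem oxygenase, which opens the haem ring and is bound by both NRF2 and BACH1, had 779.7, 742, 836 and 728 CPM in the KO libraries, against 172, 171, 158 and 176 CPM in the WT libraries. The lowest KO library held over 4 times the level of the highest WT library (fold of the means 4.56, log2 fold change 2.19 with SE 0.046, edgeR adjusted p = 2.30e-18). Ugdh (chromosome 5, 65413221 to 65435949), which makes the UDP-glucuronate used to conjugate drugs and bilirubin and whose promoter held 2 matches, had 591, 566, 615 and 554 CPM in the KO libraries, against 285, 289, 282 and 278 CPM in the WT libraries. KO libraries lay near 2 times the WT level with no overlap (log2 fold change 1.04 with SE 0.037, edgeR adjusted p = 6.41e-15). Abcc1, for an efflux pump of glutathione conjugates, had 23.95, 24.6, 22.8 and 21.8 CPM in the KO libraries, against 10.5, 11.8, 14.7 and 11.2 CPM in the WT libraries. The WT libraries varied more here than for most members, and all 4 KO libraries lay above them (log2 fold change 0.96 with SE 0.083, edgeR adjusted p = 4.07e-09). Osgin1, for an oxidative stress-induced growth inhibitor, had 582, 628, 562 and 648 CPM in the KO libraries, against 438, 400.02, 433 and 417 CPM in the WT libraries, also without overlap (log2 fold change 0.52 with SE 0.044, edgeR adjusted p = 2.99e-09). Ephx1, for microsomal epoxide hydrolase, stood at 374 ± 15.02 CPM in KO libraries and 326 ± 11.9 CPM in WT libraries (log2 fold change 0.20 with SE 0.038, edgeR adjusted p = 0.000147).

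Nqo1, for a quinone reductase often used as an indicator of NRF2 activity, was a minor transcript in these cultures, at 6.64 in KO and 5.53 in WT libraries per kilobase. It had 10.5, 9.39, 11.2 and 10.2 CPM in the KO libraries, against 9.24, 8.02, 7.15 and 9.93 CPM in the WT libraries. WT replicate 4 lay above KO replicate 2, so the groups overlapped (log2 fold change 0.26 with SE 0.093, edgeR adjusted p = 0.0209). The call ended without KO replicate 3 (adjusted p = 0.0580), without WT replicate 2 (0.0613) and without WT replicate 3 (0.104), with a range over all alternatives of 0.00584 to 0.104. The carbonyl-reducing enzymes did not pass. Cbr1 stood at 46.2 ± 2.91 CPM in KO libraries and 43.7 ± 2.30 CPM in WT libraries (log2 fold change 0.079 with SE 0.050), its neighbour and relative Cbr3 at 3.73 ± 0.247 CPM in KO libraries and 3.02 ± 0.748 CPM in WT libraries (log2 fold change 0.29 with SE 0.15), and Akr1a1 at 304 ± 5.60 CPM in KO libraries and 312 ± 9.74 CPM in WT libraries (log2 fold change -0.034 with SE 0.035). Adjusted p-values were 0.180 for Cbr1, 0.101 for Cbr3 and 0.414 for Akr1a1 (edgeR). Cbr3 rested on 37 to 90 counts a library, and WT replicate 3 was its lowest library.

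**Figure D3:**
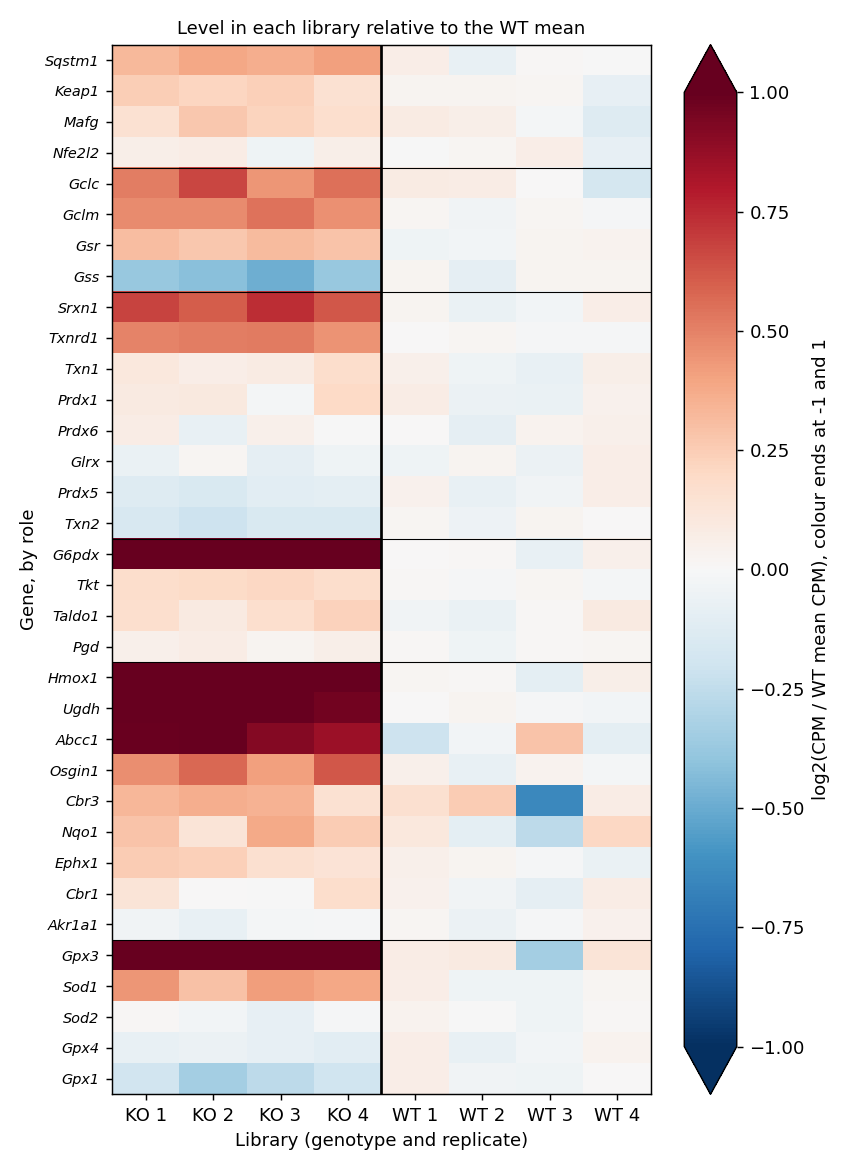
Log2 ratio of each library's CPM to the WT mean (colour, ends at -1 and 1) for the 34 members tested, with the KO libraries left of the WT libraries. Within the KO columns the members keep nearly the same colour from library to library, values past the ends take the end colour, and Cbr3, Nqo1 and Gpx3 have their lowest level in WT replicate 3.

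The glutathione peroxidases and superoxide dismutases did not move together. Of 5 tested 2 rose (40%) and 1 fell (20%), where 30.2% of all genes tested rose and 31.2% fell. Gpx3 (chromosome 11, 54902453 to 54910377), for the secreted peroxidase of plasma, had 17.9, 19.5, 20.6 and 21.2 CPM in the KO libraries, against 4.86, 4.91, 3.65 and 5.06 CPM in the WT libraries. Each KO library lay far above every WT library (fold 4.29, log2 fold change 2.09 with SE 0.091, edgeR adjusted p = 1.11e-13). Gpx1, for the abundant cytosolic and mitochondrial peroxidase, had 1188, 1072, 1131 and 1182 CPM in the KO libraries, against 1417, 1327, 1318 and 1363 CPM in the WT libraries. All KO libraries lay below all WT libraries (log2 fold change -0.25 with SE 0.039, edgeR adjusted p = 1.41e-05). Gpx4, which reduces lipid peroxides and restrains ferroptosis, stood at 255 ± 3.61 CPM in KO libraries and 269 ± 11.8 CPM in WT libraries (log2 fold change -0.082 with SE 0.037, edgeR adjusted p = 0.0596) and passed in 3 of 17 alternatives, among them the fit without WT replicate 2 (adjusted p = 0.0168), with a range of 0.0143 to 0.192. Gpx2, for the peroxidase of the gut epithelium, had 0, 0, 3 and 2 counts in the KO libraries and 1, 1, 0 and 2 counts in the WT libraries, so it was not tested and no fold is given. Sod1, for the copper and zinc superoxide dismutase of the cytosol, had 343, 309.5, 337 and 331 CPM in the KO libraries, against 264, 246, 245 and 256 CPM in the WT libraries. Its groups did not overlap (log2 fold change 0.38 with SE 0.039, edgeR adjusted p = 4.41e-08). Sod2, for the manganese enzyme of mitochondria, stood at 99.7 ± 2.73 CPM in KO libraries and 101 ± 2.31 CPM in WT libraries (log2 fold change -0.026 with SE 0.035, edgeR adjusted p = 0.541), and the ratio of Sod1 to Sod2 CPM lay between 3.11 and 3.51 in KO libraries, against 2.44 and 2.54 in WT libraries.

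Some of the members that rose most are set here beside markers of other liver cells, since Kupffer cells, the macrophages of the liver, also make haem oxygenase. The macrophage marker C1qb stood at 14.05 ± 0.675 CPM in KO libraries and 2.14 ± 0.226 CPM in WT libraries. The ratio of Hmox1 to C1qb CPM lay between 51.6 and 60.7 in KO libraries, against 69.5 and 87.6 in WT libraries. The ratio of Hmox1 to Cd68, another macrophage marker, lay between 4.31 and 4.65 in KO libraries, against 1.71 and 2.24 in WT libraries. Over all 11 macrophage markers tested, the ratio of Hmox1 to the marker was higher in every KO library than in every WT library for 4 (Cd68, Vsig4, Cd5l and Lyz2), lower for 5 (Csf1r, C1qa, C1qb, C1qc and Clec4f) and overlapped for 2. For Gpx3 the ratio to C1qb lay between 1.20 and 1.503 in KO libraries, against 1.84 and 2.51 in WT libraries, and that to Cd68 lay between 0.0988 and 0.129 in KO libraries, against 0.0489 and 0.0644 in WT libraries. Over the 11 markers it was higher in KO libraries for 4, lower for 4 and overlapped for 3. For Abcc1 the ratio to C1qb lay between 1.54 and 1.85 in KO libraries, against 4.23 and 7.42 in WT libraries, and over the 11 markers it was higher in KO libraries for 0, lower for 9 and overlapped for 2. These members thus rose by less than some macrophage markers, and Hmox1 and Gpx3 by more than others. Timd4, the other macrophage marker, was too low to be tested. The part of these cells in the rise of Hmox1, Gpx3 and Abcc1 was not tested.

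**Figure D4:**
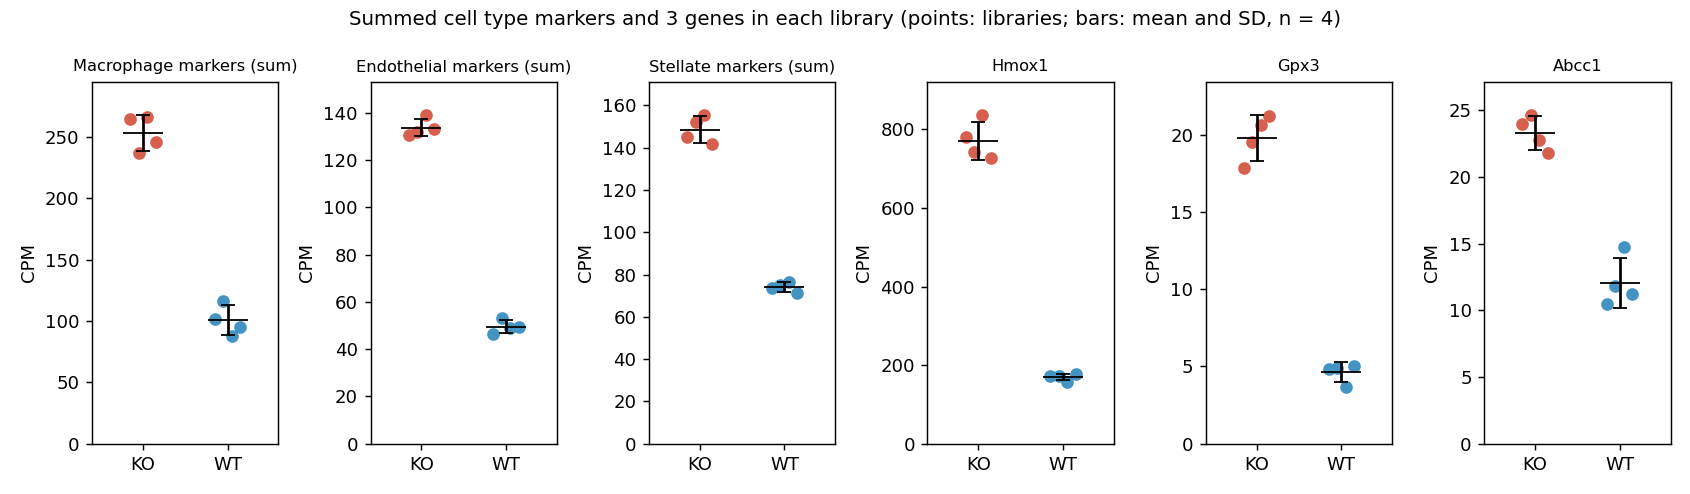
Summed CPM of 12 macrophage, 10 endothelial and 10 stellate cell markers, and CPM of Hmox1, Gpx3 and Abcc1, in each KO and WT library (vertical axes from 0, bars are mean and SD of 4 libraries). KO libraries lie above WT libraries in all 6 panels.

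Genes of the same pathways outside the member list split almost evenly, as all genes tested did. Of 79 tested, 29 rose (36.7%) and 28 fell (35.4%), where 30.2% of all genes tested rose and 31.2% fell. The median of the 79 on the log2 scale was -0.037. Among 26 further NRF2 targets 12 rose (46.2%) and 6 fell (23.1%). Both ferritin genes rose, the heavy chain gene Fth1 to 3368 ± 168 CPM in KO libraries, against 2268 ± 112 CPM in WT libraries (log2 fold change 0.57 with SE 0.042), and the light chain gene Ftl1 to 5394 ± 272 CPM, against 4340.3 ± 203 CPM in WT libraries (log2 fold change 0.31 with SE 0.042). Both store the iron that haem oxygenase releases. Esd, for S-formylglutathione hydrolase, rose by 0.42 on the log2 scale (SE 0.037). Slc7a11, for the cystine importer that feeds glutathione synthesis, went the other way, at 52.1, 62.4, 48.5 and 55.04 CPM in the KO libraries, against 80.4, 78.3, 90.2 and 82.8 CPM in the WT libraries. Every KO library of Slc7a11 was below every WT library (log2 fold change -0.61 with SE 0.058, edgeR adjusted p = 2.00e-08). The carboxylesterase gene Ces2a (log2 fold change -0.41 with SE 0.039) and the fatty aldehyde dehydrogenase gene Aldh3a2 (log2 fold change -0.26 with SE 0.050) fell too. Ces2a had a count that was not whole in 1 library, so part of its reads were shared with another gene.

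Among 27 further antioxidant genes 11 rose (40.7%) and 12 fell (44.4%), where 30.2% of all genes tested rose and 31.2% fell. Txnip, for the thioredoxin-binding protein that inhibits it, had 40.2, 35.2, 44.2 and 34.96 CPM in the KO libraries, against 6.42, 7.73, 7.15 and 6.89 CPM in the WT libraries. This was a larger change than that of any member of the thioredoxin group (log2 fold change 2.46 with SE 0.084, edgeR adjusted p = 3.65e-15). Sod3, for the extracellular superoxide dismutase, stood at 1.74 ± 0.249 CPM in KO libraries and 0.269 ± 0.0804 CPM in WT libraries (log2 fold change 2.65 with SE 0.26). That fold rests on few counts, with 45, 28, 45 and 36 in the KO libraries and 8, 6, 3 and 6 in the WT libraries. Cat, for catalase, rose to 592 ± 15.2 CPM in KO libraries, against 465 ± 5.06 CPM in WT libraries (log2 fold change 0.35 with SE 0.033). Prdx3, for the mitochondrial peroxiredoxin, fell to 132 ± 7.11 CPM in KO libraries, against 188 ± 12.3 CPM in WT libraries (log2 fold change -0.50 with SE 0.047). The methionine sulfoxide reductase genes Msrb1 and Msrb3 fell as well, with log2 fold changes of -0.36 and -0.35 (SE 0.039 and 0.041). Sepp1, for the plasma selenium carrier selenoprotein P, had the highest mean CPM of this list, at 2839 ± 54.8 CPM in KO libraries and 2571 ± 90.3 CPM in WT libraries (log2 fold change 0.14 with SE 0.035).

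Of 15 further genes tested from NADPH and pentose phosphate metabolism, not all of them sources of NADPH, 8 were lower (53.3%) and 3 higher (20%). Among all genes tested 31.2% were lower and 30.2% higher. Mthfd2 and Mthfd1, for mitochondrial and cytosolic enzymes of folate metabolism, both fell (log2 fold change -0.77 with SE 0.039 for Mthfd2, log2 fold change -0.44 with SE 0.033 for Mthfd1). Idh2, for the mitochondrial NADP-dependent isocitrate dehydrogenase, fell to 29.9 ± 1.81 CPM in KO libraries, against 43.4 ± 1.56 CPM in WT libraries (log2 fold change -0.54 with SE 0.050). Me2, for a mitochondrial malic enzyme, rose to 8.36 ± 0.807 CPM in KO libraries, against 2.85 ± 0.762 CPM in WT libraries (log2 fold change 1.55 with SE 0.14). Nadk2, for the mitochondrial NAD kinase, rose by 0.31 on the log2 scale (SE 0.049). Rpia, for ribose-5-phosphate isomerase, rose by 0.23 (SE 0.088), with adjusted p from 0.0158 to 0.113 over the alternatives. Its call was lost with library totals alone and without KO replicate 3 (adjusted p = 0.0796), KO replicate 4 (0.0740), WT replicate 2 (0.113) or WT replicate 3 (0.0799). H6pd, for the glucose-6-phosphate dehydrogenase of the endoplasmic reticulum, had the highest mean CPM of this list, at 576 ± 20.4 CPM in KO libraries and 630.2 ± 19.4 CPM in WT libraries (log2 fold change -0.13 with SE 0.036). Its groups overlapped, with KO replicate 2 at 606 CPM above WT replicate 4 at 604 CPM. H6pd was called lower while G6pdx, for its cytosolic counterpart, was called higher without overlap.

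**Figure D5:**
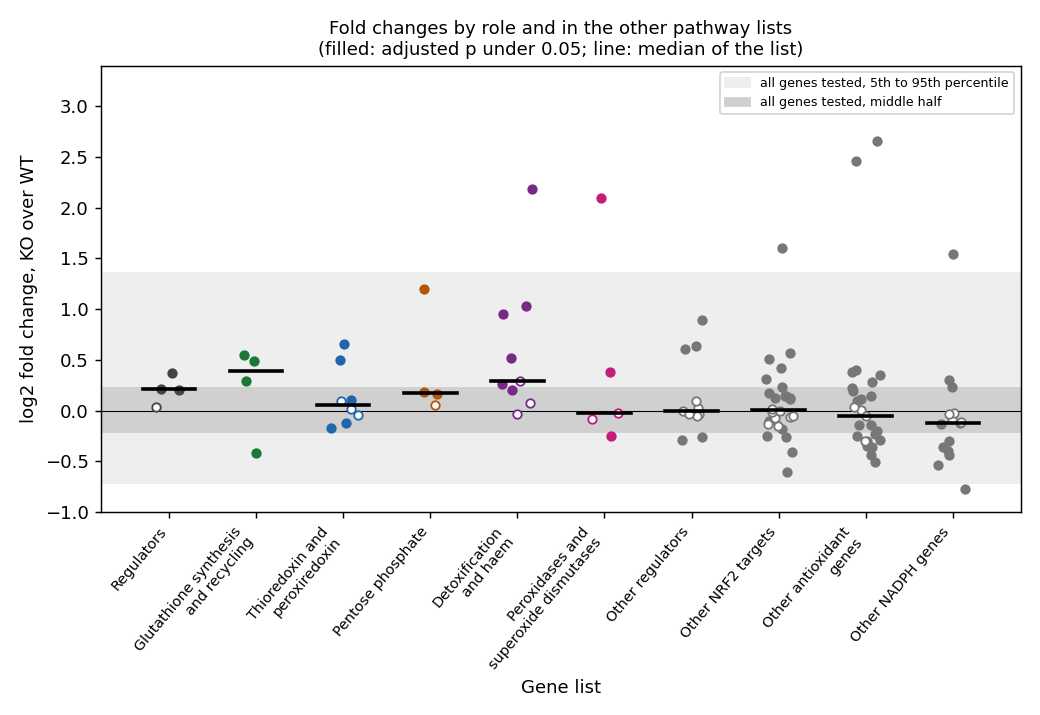
Log2 fold change of KO over WT (vertical axis) for members by role and for 4 further lists, with each list's median as a line and the spread of all genes tested as grey bands. Medians of the role groups run from -0.026 to 0.39, and those of the 4 further lists from -0.12 to 0.0084.

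Levels varied little between libraries of a genotype. The relative spread (SD over mean) of the 34 members tested ran from 1.02% to 7.45% in KO libraries, with a median of 3.90%, and from 1.02% to 24.7% in WT libraries, with a median of 4.13%. Cbr3 had the widest spread in WT and Gpx3 in KO libraries. Of the 34 members, 14 had their highest WT level in WT replicate 4, and 12 had their lowest in WT replicate 2 and 12 in WT replicate 3. The median deviation of a library from its genotype's mean lay between -0.031 (WT replicate 2) and 0.029 (WT replicate 1) on the log2 scale.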

How the data were processed

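RNA of hepatocytes was sequenced (4 KO and 4 WT libraries). The authors deposited estimated counts per gene (expected counts), made with RSEM on mm10, per the submitters' processing notes. The sources used here give no version, aligner or strand setting. Libraries were made with an Illumina TruSeq kit and sequenced in 2 rounds, per the labels' protocols, which do not say how rounds map to columns. A further 8 columns of the table match no sample and were not used.

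Counts were rounded, filtered with filterByExpr (minimum count 10, minimum total 15), scaled by TMM and tested over all genes, KO over WT, by edgeR's quasi-likelihood method with Benjamini-Hochberg adjustment (threshold 0.05). The work ran in R 4.3.3 with DESeq2 1.42.0, edgeR 4.0.16 and limma 3.58.1. The fit was tested on simulated data. Within a genotype, pairs of libraries differed by more than sampling noise (chi-square per degree of freedom 3.18 to 8.62), and p-values measure the spread between these libraries only. All values of the members were whole (tolerance 0.005). Mean CPM was divided by the length of the longest matched GENCODE transcript for levels per kilobase. Coordinates are those of GENCODE M21 on mm10.

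The members and lists were chosen with earlier results of these data known. All members are described. Of the further lists, the named genes are up to 3 called genes with the smallest p in each direction and the most abundant gene. All markers named singly, overlapping neighbours (Sirt7, Acss2, Trmt112, Ikbkg) and the ratios were chosen after values were seen. Alternatives were RLE, upper-quartile and total-count scaling, DESeq2, limma-voom, no or a stricter low-count filter, thinning, a replicate block and leaving out each library.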

Additional observations from a re-analysis of the deposited data

Results flagged for a closer look

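For 61 genes each genotype's 4 libraries were searched for a lone library apart from the other 3 (Dixon's ratio above 0.829). This marked 8 of 122 groups, and chance marks about 1 in 20. In KO libraries these were Cbr3 (replicate 4 at 3.36 CPM, the others 3.81 to 3.90), Trim21 (replicate 4 at 10.6 CPM, the others 11.97 to 12.2), Fth1 (replicate 2 at 3118 CPM, the others 3432 to 3482) and H6pd (replicate 2 at 606 CPM, the others 562 to 569). In WT libraries they were Keap1 (replicate 4 at 62.2 CPM, the others 66.8 to 67.3), Gss (replicate 2 at 182 CPM, each other library at 197), Pgd (replicate 2 at 474 CPM, the others 493 to 495) and Gpx3 (replicate 3 at 3.65 CPM, the others 4.86 to 5.06).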

How the results depend on the processing

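The count of members that rose stayed between 18 and 21 and that of members that fell between 4 and 5 over 17 alternatives. Further pathway genes rose in 21 to 30 cases and fell in 25 to 31. Of 34 members 28 kept their direction and their side of the threshold in every alternative. Prdx6 turned sign, to -0.014 with library totals alone and -0.016 without WT replicate 2, in a range of -0.016 to 0.048 over the fits that leave out 1 library. Txn1, Nqo1, Prdx1, Cbr3 and Gpx4 crossed the threshold in some, and the cause was not tested. Among the further named genes only Rpia did. Under the replicate block 21 members rose and 4 fell, and 29 further genes rose and 29 fell; of the members it changed only the call of Prdx1 (adjusted p = 0.0238). Same-numbered KO and WT libraries did not deviate together (correlations -0.069 to 0.011), and no library correlated best with its own number. The sources used here do not say whether same-numbered libraries were prepared together, and correlations this small cannot decide it. Depth limits Gpx2, at 0 to 3 counts, Cbr3 and, outside the member list, Sod3, at 3 to 8 counts in WT libraries.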
